A study of Mus with 8 samples.

Results

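H/ACA small nucleolar RNAs were examined in interscapular brown adipose tissue of mice labelled HILPDA KO and wild type. The members are the genes with a symbol starting Snora that have a probe set annotated with that gene alone, and a gene with more than 1 such probe set is represented by the one with the highest mean over all arrays. This gave 18 genes of the 30746 genes compared, from 19 probe sets. A further 20 Snora genes share all their probe sets with other genes and were not analysed here.

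H/ACA small nucleolar RNAs are short, non-polyadenylated RNAs of the nucleolus that fold into hairpins carrying the H box and the ACA box. Most of them pair with ribosomal RNA and guide dyskerin, the pseudouridine synthase encoded by Dkc1, to the uridine to be modified, whereas the U17 RNAs encoded by Snora73a and Snora73b are needed for the cleavage of the precursor of 18S ribosomal RNA. In mammals most of them are released from introns of host genes while the host transcript is spliced and its intron is degraded, so a snoRNA and the spliced RNA of its host can reach different levels.

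Total RNA of 4 mice labelled HILPDA KO was set against that of 4 mice labelled wild type (WT), all of strain background C57BL/6, with 1 array per mouse. Hilpda encodes an inhibitor of the lipase that starts triglyceride breakdown. The labels name no treatment, and the sources used here give neither the allele nor the age of the mice. The number of arrays limits the precision of every value, and all values are log2 expression values made by the authors with RMA.

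The arrays form 2 sets that the labels do not mention. Set 1 holds KO and WT replicates 1 and 2, with a median over all genes of 3.92 to 3.99. Set 2 holds KO and WT replicates 3 and 4, with a median of 4.92 to 4.96, so levels are compared within a set only, and the difference of KO minus WT over all arrays is the limma estimate with the set as a block. Hilpda itself read 4.45 and 4.37 in KO of set 1, against 4.37 and 4.28 in WT, and it read 5.60 and 5.51 in KO of set 2, against 6.00 and 5.92 in WT. The targeted gene was thus lower in KO in set 2 only (limma adjusted p = 0.145), and every direction is that of the arrays bearing the KO label. All mice are labelled female, but the Y-linked gene Uty read 9.31 to 10.93 and Xist 3.49 to 4.10 over the 8 arrays. The brown fat marker Ucp1 lay between 19.68 and 19.93, at or near the top of the scale on every array, and all 10 brown adipocyte markers lay above the olfactory receptor background that is described next. Fewer cells of a type and less RNA per cell cannot be told apart in such tissue samples.

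All 18 members lie within the annotated span of another gene in the RefSeq table of assembly GRCm38.p6, which was read without strand, in 15 cases that of a protein-coding gene and in 3 cases that of a long non-coding RNA alone. Many of the hosts belong to the translation machinery. Snora21, Snora62, Snora69 and Snora7a lie in the ribosomal protein genes Rpl23, Rpsa, Rpl39 and Rpl32, and Snora78 lies within the spans of both Rps2 and Snhg9. Snora19 lies in Eif3a, a subunit of a translation initiation factor, Snora41 in Eef1b2, a subunit of an elongation factor, and Snora31 in Tpt1, which encodes the translationally controlled tumour protein. Snora75 lies in Ncl, which encodes the nucleolar protein nucleolin, and Snora20 in Tcp1, a chaperonin subunit. Others lie in genes of chromatin regulation (Snora30 in Srcap, Snora2b in Kansl2), in Zbed3 (Snora47), in the serotonin receptor gene Htr2c (Snora35), and in the long non-coding RNAs Snhg12 (Snora16a) and Snhg3 (Snora73a and Snora73b).

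The level of 1228 olfactory receptor genes served as the background, and their 95th percentile was 3.79 to 3.94 in set 1 and 4.74 to 4.84 in set 2. Of the 18 members, 17 lay above that percentile on all 8 arrays. The exception was Snora35, known as a brain-specific snoRNA, which lay below it on every array with values of 3.46 to 3.77. Its host Htr2c, a receptor gene of neurons, was also below it on every array.

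With both sets in the fit, no member differed between the groups after adjustment. The test was limma with the set as a block and Benjamini-Hochberg adjustment over 30746 genes, of which 0 (0%) passed at an adjusted p under 0.05, and the smallest adjusted p of a member was 0.983. At an unadjusted p under 0.05, 2 of the 18 members were lower in KO, where the share over all genes was 2.33%, and 0 were higher, where it was 2.48% (4.82% in either direction). The median difference over the 18 members was -0.04, against 0.01 over all genes. By count 11 members were below 0 and 7 above it.

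The 2 members at an unadjusted p under 0.05 were Snora31 and Snora30. Snora31, whose human counterpart has been linked to susceptibility to herpes simplex encephalitis, read 12.48, 12.75, 12.62 and 12.87 in KO replicates 1 to 4, against 14.39, 13.50, 12.98 and 13.01 in WT replicates 1 to 4. Within each set both KO values lay below both WT values, and the gap was wide in set 1 and narrow in set 2. The difference was -0.79 (SE 0.27; limma unadjusted p = 0.0199, adjusted p = 0.983), with -1.33 (SE 0.27) in set 1 and -0.25 (SE 0.27) in set 2. The difference between these was 1.08 (SE 0.39; limma unadjusted p = 0.0278, adjusted p = 0.259). Without KO replicate 1 the unadjusted p of Snora31 was 0.0582 and without KO replicate 2 it was 0.0513 (limma), and without WT replicate 1 the difference was -0.51.

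**Figure D1:**
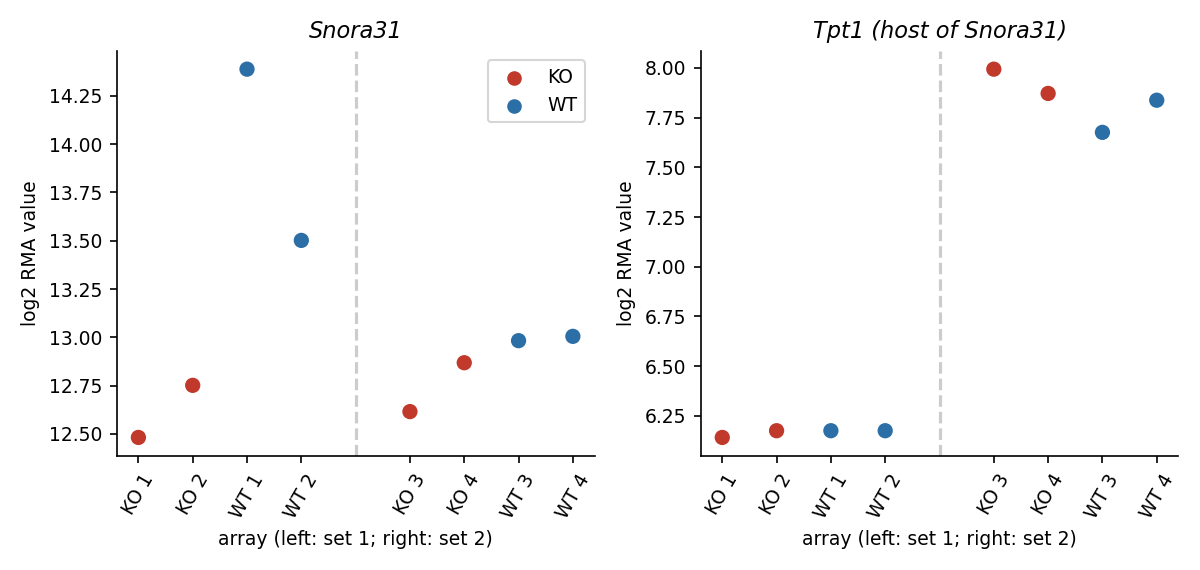
Log2 RMA values of Snora31 (left) and of its host gene Tpt1 (right) on each of the 8 arrays, KO in red and WT in blue, with a dashed line between set 1 and set 2; the 2 vertical axes have different ranges. Snora31 is lower in both KO arrays than in both WT arrays of each set. For Tpt1 the 4 arrays of set 1 lie between 6.14 and 6.18, and KO replicate 2 and both WT arrays there have the same value.

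Snora30 read 8.78, 9.20, 10.16 and 10.04 in KO replicates 1 to 4, against 9.80, 10.04, 10.13 and 10.54 in WT replicates 1 to 4. Both KO values lay below both WT values in set 1, and the groups overlapped in set 2. The difference was -0.58 (SE 0.18; limma unadjusted p = 0.0136, adjusted p = 0.983), with -0.93 in set 1 and -0.23 in set 2. Its unadjusted p stayed under 0.05 in limma with any 1 array left out, and it was 0.134 without the set as a block. Snora31 was the 1 member whose groups did not overlap in the same direction in both sets, where 2.46% of all genes did so with KO lower. No member did so with KO higher, where the share of all genes was 2.85%.

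Within set 1 nearly all members were lower in KO. Of the 18 members, 16 lay below 0 there, against 48.9% of all genes and 63.1% of the 13847 genes above the olfactory receptor background on all arrays. The median difference was -0.36, against 0.004 over all genes. In 10 members both KO values lay below both WT values, where 19.4% of all genes did so, and in 0 members both lay above, where 18.9% did. Of the 13847 genes above background, 4204 had both KO values below and 1787 had both above. At a limma unadjusted p under 0.05, 4 members were lower, where the share of all genes was 5.07%, and 0 were higher, where it was 2.65%. Of the genes above background, 1444 were lower and 417 higher at that threshold. A limma fit on set 1 alone gave the same member counts, 4 lower and 0 higher, beside 5.63% and 2.93% of all genes. No member passed after adjustment (smallest adjusted p = 0.332).

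Snora31, Snora30, Snora2b and Snora41 were these 4 members. Snora2b read 5.86 and 5.40 in KO of set 1, against 6.75 and 6.65 in WT, a difference of -1.07 (SE 0.26). In set 2 it read 7.42 and 8.20 in KO, on either side of 7.75 and 7.88 in WT, a difference of 0.003. Snora75 had the largest difference of set 1, -1.37 (SE 0.65), but its groups overlapped there, with 6.20 and 7.09 in KO against 7.04 and 8.99 in WT. The 2 members above 0 in set 1 were Snora62 at 0.22 (SE 0.26) and Snora35, at background, at 0.09.

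Within set 2 most members were on the other side. Of the 18 members, 13 lay above 0, against 53.6% of all genes and 56.4% of the genes above background, and the median difference was 0.20, against 0.02 over all genes. Both KO values lay above both WT values in 7 members, where 23.9% of all genes did so, and below them in 1 member, Snora31, where 19.1% did. Of the 13847 genes above background, 4314 had both KO values above and 3063 had both below. At a limma unadjusted p under 0.05, 1 member was higher, where the share of all genes was 8.93%, and 0 were lower, where it was 6.14%. That member was Snora41 (adjusted p = 0.195), and 1 gene of all 30746 (0.00325%) passed after adjustment in set 2. In a limma fit on set 2 alone the count was 5 higher (Snora20, Snora41, Snora62, Snora75 and Snora7a), where the share of all genes was 7.79%, and 0 lower, where it was 4.86%. Without WT replicate 3 the count of members above 0 was 9 of 18, and after quantile normalization within each set it was 10 of 18.

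**Figure D2:**
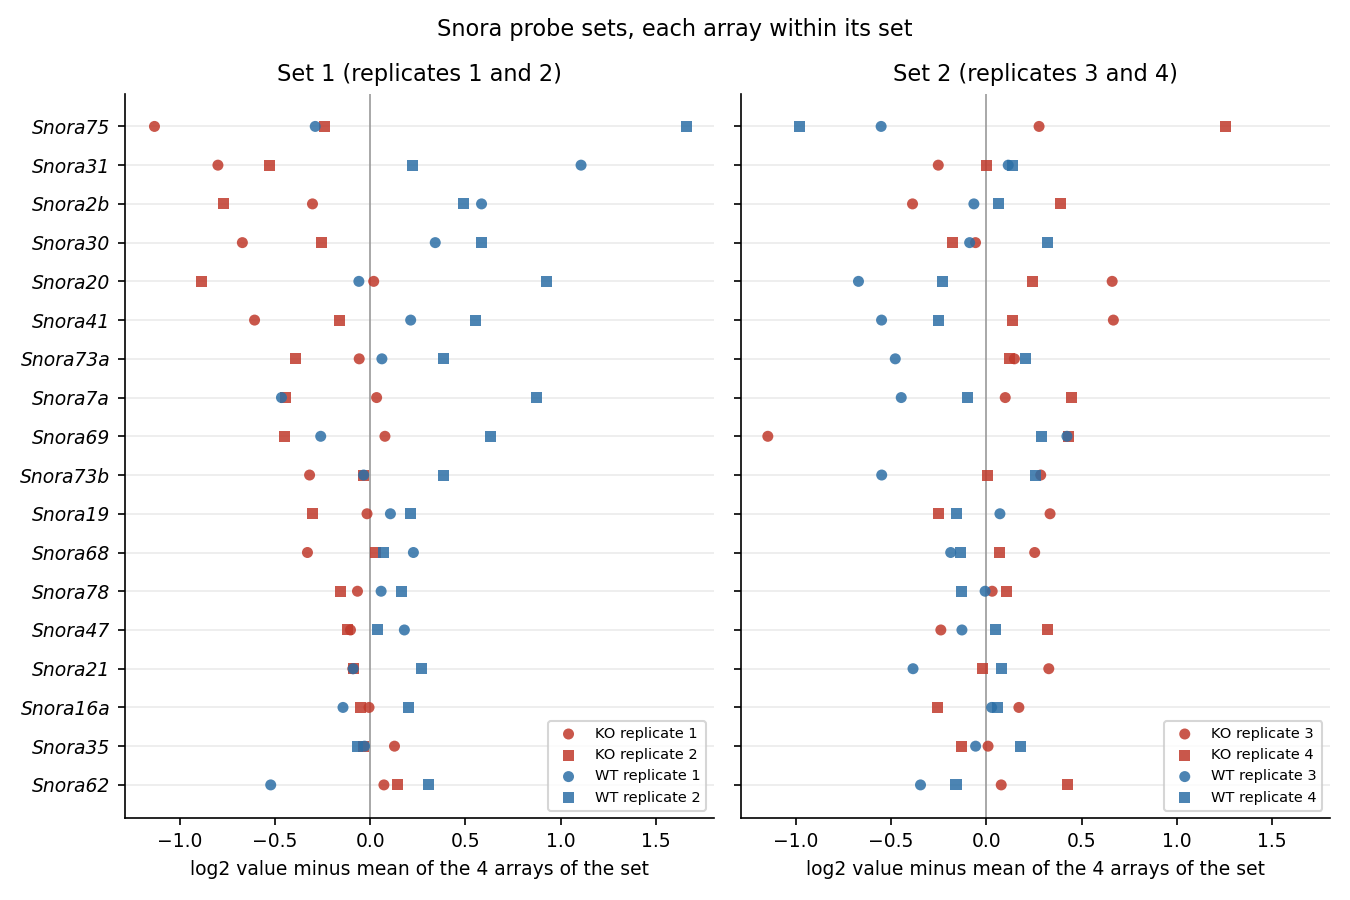
Log2 value of each of the 18 Snora genes on each array minus the mean of the 4 arrays of its set, with set 1 on the left and set 2 on the right, KO in red and WT in blue, and circles and squares for the 2 replicates of a group. In set 1 the red points lie mostly to the left of the blue ones, with WT replicate 2 highest for 13 genes, and in set 2 WT replicate 3 is lowest for 8 genes.

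The move from below 0 in set 1 to above 0 in set 2 was seen in 12 of the 18 members, against 29.7% of all genes and 41.5% of the genes above background. The difference between the sets was tested in limma with 1 mean per genotype and set. At an unadjusted p under 0.05, 8 of the 18 members passed, all with the higher value in set 2, where 14.9% of all genes passed in either direction and 9.44% with the higher value in set 2. Of the 13847 genes above background, 3629 passed in either direction and 2497 with the higher value in set 2. After adjustment 152 genes (0.494%) passed, with 4 under trend and robust moderation and 0 to 10 with any 1 array left out, and none of the members did (smallest adjusted p = 0.101). The count of 8 members was 3 after quantile normalization within each set, where the share of all genes was not taken. With 1 array left out the count was lower in most fits. Those fits hold 1 array for 1 genotype of a set, which lowers the precision for every gene, so their member counts are not given.

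Snora41 had the smallest p of the members for this difference. It read 4.04 and 4.48 in KO of set 1, against 4.86 and 5.20 in WT. In set 2 it read 6.22 and 5.68 in KO, against 4.999 and 5.30 in WT. Its lowest reading of each set lay near the olfactory receptor 95th percentile, which was 3.94 on KO replicate 1 and 4.79 on WT replicate 3. The groups did not overlap in either set, with KO lower in set 1 (-0.77, SE 0.24) and higher in set 2 (0.80, SE 0.24). The difference between the sets was 1.57 (SE 0.34; limma unadjusted p = 0.00255, adjusted p = 0.101), and over all arrays the value was 0.02. The same opposite parting was found in Snora68 and Snora78, in 3 of 18 members in all. It was found in 7.39% of all genes and in 1950 of the 13847 genes above background.

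Snora68 read 6.42 and 6.78 in KO of set 1, against 6.98 and 6.82 in WT, and 9.19 and 9.001 in KO of set 2, against 8.75 and 8.80 in WT. Its differences were -0.30 and 0.32 (SE 0.15 each). Snora78 had -0.22 in set 1 and 0.14 in set 2 (SE 0.10 each), with 4.79 to 5.11 over the arrays of set 1. Both are changes of well under 1 on the log2 scale, and neither passed after adjustment (adjusted p = 0.224 and adjusted p = 0.314 in limma for the difference between the sets).

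Snora75 and Snora20 had the widest spans between the sets. Snora75 read 8.88 and 9.86 in KO of set 2, against 8.05 and 7.63 in WT, so its difference of 1.53 (SE 0.65) there stood against -1.37 in set 1. Snora20 read 5.36 and 4.45 in KO of set 1, against 5.28 and 6.27 in WT, and 7.06 and 6.64 in KO of set 2, against 5.72 and 6.16 in WT. Its differences were -0.87 and 0.90 (SE 0.41 each). The difference between the sets was 2.90 (SE 0.92) for Snora75 and 1.77 (SE 0.58) for Snora20, with limma adjusted p values of 0.211 and 0.217.

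**Figure D3:**
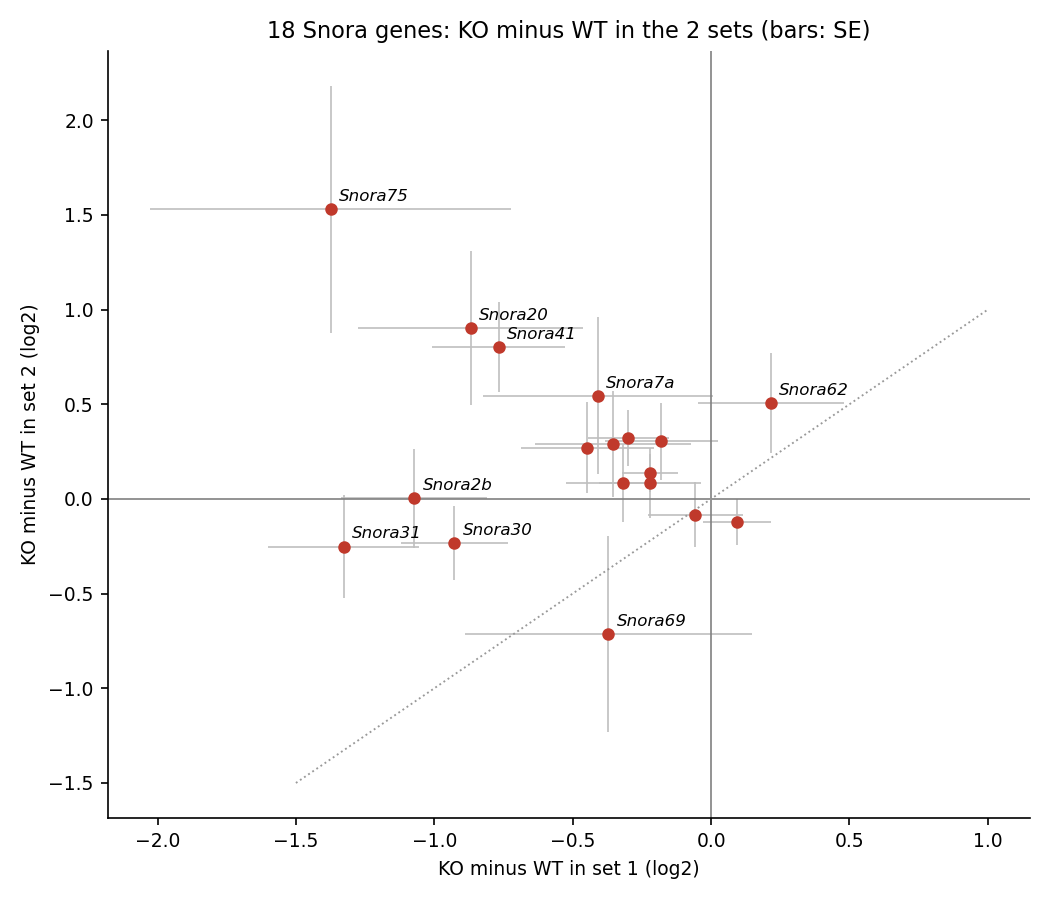
KO minus WT (log2) in set 1 on the horizontal axis and in set 2 on the vertical axis for each of the 18 Snora genes, with bars for the SE and a dotted line where both are equal. The upper left quadrant holds 12 genes, among them Snora2b, which lies at 0.003 on the vertical axis.

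The remaining members showed smaller or less even differences. Snora73a and Snora73b, the U17 RNAs, are near-identical copies whose signals the array may not separate. Snora73a read 11.47 and 11.14 in KO of set 1, against 11.59 and 11.92 in WT, and 12.30 and 12.28 in KO of set 2, against 11.67 and 12.36 in WT. The differences of the pair were -0.45 and -0.35 in set 1 and 0.27 and 0.29 in set 2. The other probe set of Snora73b gave -0.31 and 0.51. Snora7a, Snora21, Snora19 and Snora47 also changed sign, with -0.41, -0.18, -0.32 and -0.22 in set 1 and 0.54, 0.31, 0.08 and 0.08 in set 2. Snora16a differed by -0.06 in set 1 and by -0.08 in set 2 (SE 0.17 each), which was the smallest span between the sets of all members.

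The other members that kept their sign were Snora62 and Snora69. Snora62, also called E2, had the highest value over all arrays at 0.36 (SE 0.18; limma unadjusted p = 0.0891), with 8.86, 8.93, 10.19 and 10.54 in KO replicates 1 to 4, against 8.26, 9.09, 9.76 and 9.95 in WT replicates 1 to 4. Its groups overlapped in set 1 and not in set 2. Snora69 had -0.54 (SE 0.35) over all arrays, with 1 low array, KO replicate 3, at 8.88, against 10.46 in KO replicate 4 and 10.45 and 10.31 in the WT arrays of set 2.

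A host gene with a probe set of its own was measured for 12 of the 18 members, and the hosts of the other 6 were not analysed here. Over all arrays snoRNA and host had differences of the same sign in 7 of the 12 pairs, and in 8 of 12 pairs within each set. The 8 pairs of set 1 include those of Htr2c, Tpt1 and Rpl39. These hosts differed there by 0.01, -0.02 and -0.02 (SE 0.10, 0.10 and 0.18), so their signs carry little information. Whether the signs matched more often than those of unrelated genes was not tested. None of the hosts passed over all arrays or in the difference between the sets after adjustment. The sources used here do not say where along a host transcript its probes lie.

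Snora31 and Tpt1 were one of the pairs with opposite signs. Tpt1 read 6.14, 6.18, 7.99 and 7.87 in KO replicates 1 to 4, against 6.18, 6.18, 7.68 and 7.84 in WT replicates 1 to 4. KO replicate 2 and both WT arrays of set 1 carried the same Tpt1 value, so the Tpt1 reading of set 1 says little on whether the host changed with Snora31. Its difference was 0.08 over all arrays, -0.02 in set 1, where Snora31 was at -1.33, and 0.18 in set 2. The chromatin genes Srcap and Kansl2 had the opposite sign to their snoRNAs in set 1, with Srcap at 0.27 beside Snora30 at -0.93 and Kansl2 at 0.25 beside Snora2b at -1.07.

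The pairs of Ncl, Tcp1, Eif3a, Zbed3 and Snhg9 had the same sign in both sets. Ncl differed by -0.29 in set 1 and 0.33 in set 2, beside -1.37 and 1.53 for Snora75. Tcp1 differed by -0.37 and 0.32, beside -0.87 and 0.90 for Snora20. Eif3a differed by -0.41 and 0.35, beside -0.32 and 0.08 for Snora19. KO and WT of these 3 hosts did not overlap in either set, with KO lower in set 1 and higher in set 2. That pattern was found in 7.39% of all genes and in 1950 of the 13847 genes above background. Zbed3 differed by -0.24 and 0.005, beside -0.22 and 0.08 for Snora47, and Snhg9 by -0.18 and 0.28, beside -0.22 and 0.14 for Snora78. Eef1b2 and Rpsa had the opposite sign to their snoRNAs in set 1 only. Eef1b2 differed by 0.02 in set 1 and 0.38 in set 2, beside -0.77 and 0.80 for Snora41, and Rpsa differed by -0.05 and 0.44, beside 0.22 and 0.50 for Snora62.

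**Figure D4:**
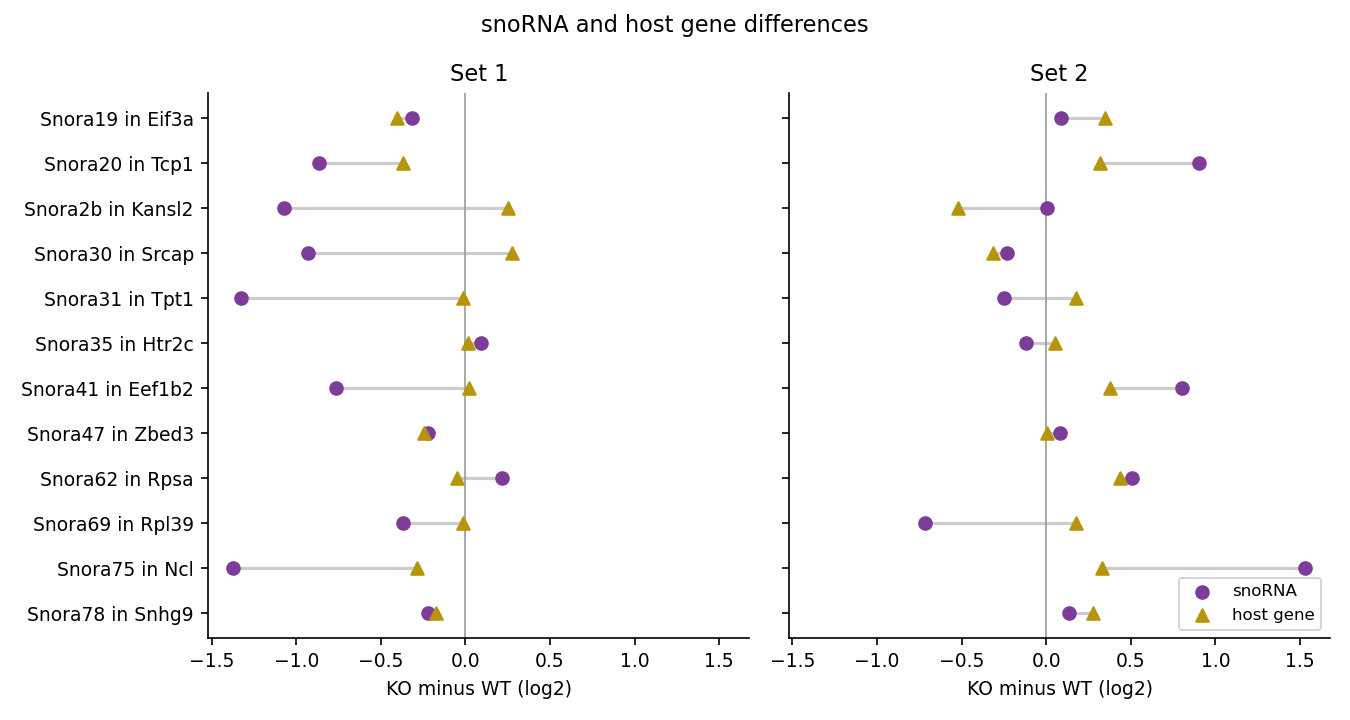
KO minus WT (log2) of 12 snoRNAs (circles) and of their host genes (triangles) in set 1 (left) and set 2 (right), with a grey line joining each pair. The widest gaps in set 1 are those of Snora31 in Tpt1, Snora2b in Kansl2 and Snora30 in Srcap, and Snora75 in Ncl lies on the left in set 1 and on the right in set 2 together with its host.

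The proteins that work with H/ACA RNAs were described from lists chosen with earlier results of these data known. Of 6 measured H/ACA proteins none passed after adjustment, and 0 were at a limma unadjusted p under 0.05 over all arrays. Dkc1, the catalytic subunit, differed by -0.004 (SE 0.10), with 0.18 in set 1 and -0.19 in set 2. Nop10, a small core subunit, differed by 0.29 (SE 0.13; limma unadjusted p = 0.0507, adjusted p = 0.983), and read 5.38, 5.53, 6.25 and 6.41 in KO replicates 1 to 4, against 4.97, 5.51, 5.90 and 6.02 in WT replicates 1 to 4. The core subunits Gar1 and Nhp2 differed by 0.09 and 0.05, and the assembly factors Naf1 and Shq1 by -0.04 and 0.04. Of the 6 proteins, 2 had the signs of most snoRNAs, Nhp2 and Shq1, with -0.23 and -0.31 in set 1 and 0.34 and 0.39 in set 2. The other 4 lay above 0 in set 1, with Nop10 at 0.22, Gar1 at 0.01 and Naf1 at 0.07 there and at 0.37, 0.17 and -0.14 in set 2.

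Of 8 measured assembly and Cajal body factors, 0 were at an unadjusted p under 0.05 over all arrays. In 4 of the 8 the value was below 0 in set 1 and above 0 in set 2. Among these, Nufip1 and Rpap3, which act in the assembly of box C/D and H/ACA particles, had -0.18 and -0.33 in set 1 and 0.67 and 0.36 in set 2. Among the others, the helicase Ruvbl2 had 0.08 and -0.58, the Cajal body factor Wrap53 0.31 and -0.11, and Pih1d1 -0.02 and -0.29. The RNA component Terc and the protein Tert of telomerase, an H/ACA particle of its own, did not lie above background on all arrays. Of the box C/D proteins, Fbl had -0.02 in set 1 and 0.32 in set 2, and Nop58 had -0.73 and 0.84. Of 12 stand-alone pseudouridine synthases, 1 was higher at an unadjusted p under 0.05 (Rpusd2, 0.31), and of 15 genes of small RNA processing 1 was lower (Exosc4, -0.29), beside 2.48% of all genes higher and 2.33% lower. None of these genes passed after adjustment.

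Other small RNAs had the same signs as the Snora genes in the 2 sets, with the exception of 5S ribosomal RNA. The 44 Snord genes of the box C/D class had medians of -0.30 in set 1 and 0.20 in set 2, with 37 members below 0 in set 1 and 32 above 0 in set 2. The 6 Scarna genes of Cajal bodies had -0.13 and 0.33, and the 14 Rnu genes, which encode spliceosomal and related RNAs, -0.48 and 0.56. The 69 genes of 5S ribosomal RNA had -0.28 and -0.27, below 0 in both sets, and 28 of them were lower over all arrays at a limma unadjusted p under 0.05, where the share of all genes was 2.33%. These 69 are near-identical copies that share signal. Differences between these families were not tested. The signs of the Snora genes were not particular to small RNAs. The 10 Snhg genes had -0.03 and 0.24, the 15 genes of small RNA processing -0.14 and 0.13, and the 13847 genes above background -0.07 and 0.04. The 12 hosts had -0.03 and 0.23, so in set 1 their median lay closer to that of all genes than the median of the snoRNAs did.

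**Figure D5:**
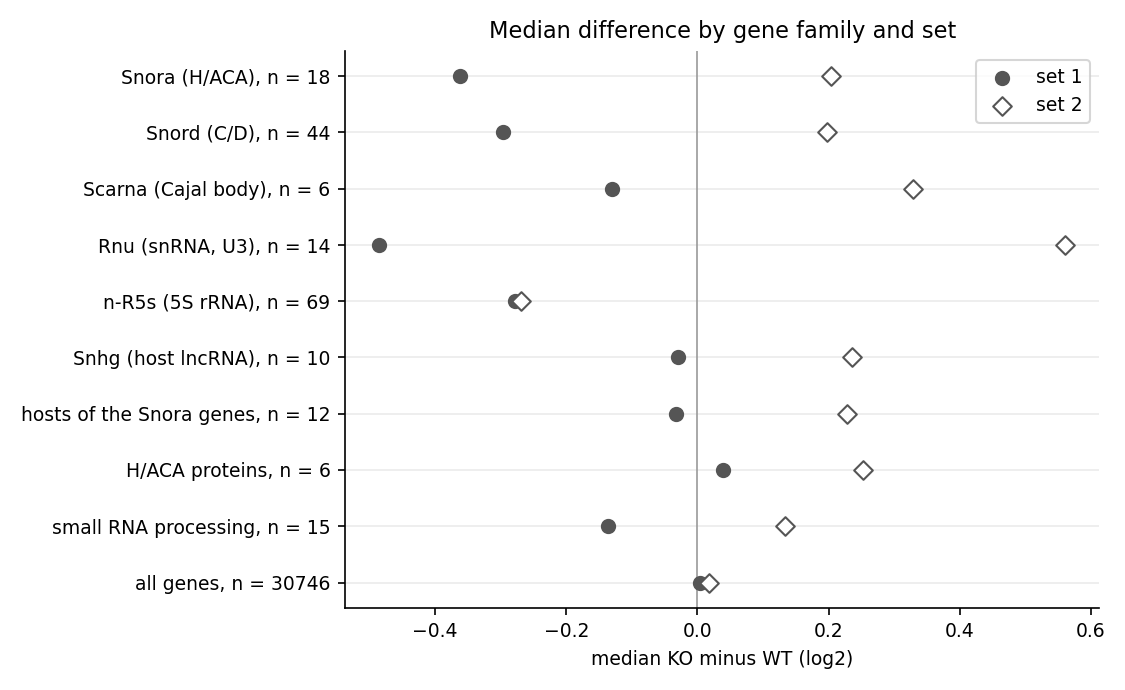
Median of KO minus WT (log2) over the measured genes of each family, with filled circles for set 1 and open diamonds for set 2; n is the number of genes. The Snora, Snord, Scarna and Rnu families lie below 0 in set 1 and above 0 in set 2. So do the Snhg genes, the hosts and the genes of small RNA processing. The medians of all genes are 0.004 and 0.02, and those of the genes above background, which are not drawn, are -0.07 and 0.04.

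Single arrays moved the members together. As the median over the 18 members of the deviation from the set mean, KO replicates 1 to 4 stood at -0.08, -0.20, 0.12 and 0.12, and WT replicates 1 to 4 at 0.01, 0.35, -0.16 and 0.05. WT replicate 2 was the highest array of set 1 in 13 of 18 members, and WT replicate 3 was the lowest array of set 2 in 8. The medians of the Snord genes had the same sign on 6 of the 8 arrays and the opposite sign on KO replicate 1 and WT replicate 1, with 0.07, -0.31, 0.16 and 0.07 in KO replicates 1 to 4, against -0.06, 0.31, -0.20 and 0.01 in WT replicates 1 to 4. Without WT replicate 2, 13 of 18 members lay below 0 in set 1.

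Transcripts of other tissues also varied over these arrays. The mean of 9 measured liver markers was 12.90, 9.11, 4.35 and 4.32 in KO replicates 1 to 4, against 8.36, 5.94, 4.34 and 4.25 in WT replicates 1 to 4. In set 1 it was thus higher in both KO arrays, and WT replicate 2, the highest array for most snoRNAs, was the lowest for liver markers. The mean of 10 skeletal muscle markers was 6.86, 10.40, 6.04 and 11.71 in KO replicates 1 to 4, against 9.16, 8.65, 12.14 and 10.30 in WT replicates 1 to 4. In set 2, 2 of the 9 liver markers lay above the olfactory receptor background on each array, and in set 1 all 9 did. The mean of 5 macrophage markers was 5.85, 5.42, 7.07 and 7.19 in KO replicates 1 to 4, against 5.75, 5.46, 6.76 and 6.81 in WT replicates 1 to 4, so it was higher in both KO arrays of set 2, where all 5 markers lay above 0. Among the brown adipocyte markers, Dio2, the deiodinase of thermogenic fat, differed by -4.63 in set 1 (limma unadjusted p = 0.00124, adjusted p = 0.319) and by 2.02 in set 2. Ppargc1a, a regulator of mitochondrial genes, differed by -0.92 and 1.36, and the lipid droplet gene Plin1 by 0.67 and -1.91. Most of the list did not move in this way. The 10 markers had medians of 0.003 in set 1 and -0.05 in set 2, with 8 of them below 0 in set 2. Ucp1 differed by 0.03 and -0.01, Cox8b by 0.03 and -0.09, Adipoq by 0.01 and -0.18 and Elovl3 by 0.06 and -1.04. Some readings of set 1 were tied. Ucp1 read 19.87 on KO replicate 2 and on both WT arrays there, and Cidea read 18.76 on KO and WT replicates 1 and 2. Such tied readings say little on whether these markers changed. The part of these cells and tissues in the differences of the snoRNAs was not tested.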

How the data were processed

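The values used were the deposited log2 expression values of 8 arrays, which the series' design text names as Affymetrix Clariom S. The authors isolated the RNA with a column kit and computed RMA values in Expression Console (core exons), per the labels. The sources used here name no version, annotation or build, and no scanner files were used.

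Of 72688 probe sets, 6732 are controls, 31219 had 1 gene in the platform annotation, 1531 had several and 33206 had none. RefSeq (GRCm38.p6) matched 30909 of the 31219 and served for names and host spans only, without strand; 1 host is not reported here. The probe set with the highest mean stood for a gene.

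KO minus WT was fitted with limma (version 3.58.1, R 4.3.3; lmFit, eBayes) with the set as a block, Benjamini-Hochberg adjusted over 30746 genes. A model with 1 mean per genotype and set gave within-set values. Members and lists were chosen with earlier results of these data known. Named were Snora31, the 8 members with the smallest p in each direction, members parted in both sets, their hosts and the list genes. Alternatives changed the block, moderation, low-value filter, normalization, probe set choice and arrays left out. The limma script was tested on simulated data. The values are intensities on a log scale, so precision is limited by 4 arrays per group, from separate mice per the design text. Replicate numbers did not pair the arrays: deviations from genotype and set means correlated at 0.107 and -0.0887 between same-numbered arrays.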

Additional observations from a re-analysis of the deposited data

How the results depend on the processing

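With the settings that kept all 8 arrays, 138 of 143 member values kept their direction, and the smallest adjusted p of a member was 0.927 (limma). It was 0.546 with 1 array left out and 0.212 in the fits on 1 set alone, so no member passed for KO minus WT in any of these settings. The reversed values were small. With median centring Snora20 had -0.0050, Snora41 -0.0044 and Snora68 -0.011, with quantile normalization within each set Snora68 had -0.0058, and with the mean of all probe sets Snora73b had 0.034. In set 1 alone Snora20 had -0.87, Snora21 -0.18, Snora35 0.094, Snora41 -0.77, Snora68 -0.30, Snora75 -1.37 and Snora7a -0.41. In set 2 alone Snora19 had 0.085, Snora2b 0.0025, Snora47 0.083, Snora73a 0.27, Snora73b 0.29 and Snora78 0.14. Each set holds 2 arrays per genotype, so the value over all arrays with the set as a block is the mean of the 2 set values. A set whose sign is opposite to that mean therefore counts as reversed. Why the other settings reversed a value was not tested. The median over the members was -0.363 in set 1 alone and 0.204 in set 2 alone, and -0.152 to 0.0285 with 1 array left out. Members at an unadjusted p under 0.05 numbered 2, and 1 without a block, where Snora30 was lost (limma unadjusted p = 0.134). They numbered 4 in a fit on set 1 alone, all lower (5.63% of all genes), and 5 in a fit on set 2 alone, all higher (7.79%). With 1 array left out they numbered 1 to 5, and the share of all genes was not taken there. Members parted the same way in both sets numbered 1, beside 2.46% of all genes with KO lower and 2.85% with KO higher. They numbered 2 after quantile normalization, where the share of all genes was not taken. Counts with 1 array left out are not given, since 1 value is then set against 2 in 1 set and groups part more easily. In set 1 alone 10 were parted, all with KO lower, beside 19.4% of all genes lower and 18.9% higher. In set 2 alone 8 were parted, 7 with KO higher (23.9% of all genes) and 1 with KO lower (19.1%). For the difference between the sets, 8 members were at an unadjusted p under 0.05, and 3 after quantile normalization, where the share of all genes was not taken. Over all genes 152 passed for that difference, 4 with trend and robust moderation, 359 with the low-value filter, 82 with median centring and 0 to 10 with 1 array left out. The overall calls were 0, 1 with every probe set that is no control and 0 to 1 with 1 array left out; at an unadjusted p under 0.05 there were 1481 genes, and 38 without the block. SnoRNA and host had the same sign in 5 to 8 of 12 pairs with 1 array left out.

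With 1 array left out, 12 members changed sign: Snora16a ranged from -0.153 to 0.0172, Snora20 from -0.248 to 0.391, Snora21 from -0.0781 to 0.183, Snora35 from -0.0673 to 0.0548, Snora41 from -0.246 to 0.263, Snora47 from -0.211 to 0.0128, Snora68 from -0.0882 to 0.145, Snora73a from -0.298 to 0.0499, Snora73b from -0.258 to 0.117, Snora75 from -0.408 to 0.759, Snora78 from -0.103 to 0.0150 and Snora7a from -0.105 to 0.431. The replicate number as a block gave 0 calls, 2 members and 1234 genes at an unadjusted p under 0.05, and it changed no other call. The setting with every probe set and the count of members in the difference between the sets were chosen after seeing the data. Values near the olfactory receptor background, as in Snora35 and in the lowest readings of Snora41, carry little information on direction.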
